A study of Mus musculus with 6 samples.

Results

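The genes described here are 10 genes of the Notch signalling pathway, the receptors *Notch1*, *Notch2* and *Notch3*, the ligands *Dll1*, *Jag1* and *Jag2* and the transcription factors *Hes1*, *Hes6*, *Hey1* and *Heyl*. They were taken by name from the 23231 genes with a count in any of the 6 RNA-Seq libraries, and all 10 were listed. The libraries come from C2C12, a line of mouse myoblasts that form myotubes in low serum, on day 5 of differentiation in 2% horse serum. Both groups received lentivirus, at a multiplicity of 100, and were selected with 2 µg/ml puromycin. Both carried dCas9-KRAB, a nuclease-dead Cas9 fused to a repressor domain and driven by the hUbC promoter. The 3 dCas9-KRAB libraries are the control without sgRNAs, and the 3 dCas9-KRAB-En5 libraries come from cells that also carried 2 sgRNAs against En5, an enhancer of the myogenic transcription factor gene *Myog*. The transduced cells were stable lines selected as a population, and no single clone is named. The question was how the Notch genes stood in cells kept in differentiation medium when this enhancer was targeted.

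In Notch signalling a ligand on one cell binds a receptor on its neighbour, the receptor is cleaved, and its intracellular part enters the nucleus, where it joins the DNA-binding protein RBPJ and switches on genes of the *Hes* and *Hey* families. In muscle, Notch signalling is known for keeping progenitor cells undifferentiated, and it goes down as myoblasts fuse. HES6 is an unusual member of its family that counters HES1 and is associated with differentiation.

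The guides that separate the groups are shown first, as their target sites 5′ to 3′ with the 3 bases of the PAM, which Cas9 needs beside its site, in capitals.
Myog-En5-sgRNA1: gaaggggttactgtcggcagAGG
Myog-En5-sgRNA2: gaccggaagattgaaccactGGG

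RefSeq promoter windows of build GRCm38.p6 were available for 7 of the 10 genes, in 9 windows, and were searched on both strands over the 250 bases before the start. The letters CAGCTG, an E box of the kind that MYOD and myogenin bind, were found for 3 of the 7 genes, *Hes6*, *Jag1* and *Dll1*, and in 13% of all 32851 mouse windows. The letters CACNAG, the N box that HES proteins bind, were found for 4 of the 7 genes and in 36.7% of all windows. The letters TGGGAA, the core of the site that RBPJ binds, were in none of the 9 windows and in 21.6% of all windows. *Hes1*, *Hey1* and *Heyl* had no window, so their promoters were not searched for any of these motifs. A gene was counted if any of its windows held a match, whereas the percentages are per window, so the 2 are not like for like. Matches of different motifs can share letters, and a match is only a match of letters. The E boxes of *Hes6* and *Jag1* are printed because these genes were called in opposite directions in the model with the replicate block below. Both genes lie on the minus strand, CAGCTG is in capitals, and the first sequence, chr1:91414039-91414288, is the full 250 bases before *Hes6*. E boxes with other letters were not searched and are left in lower case where they occur. The second, chr1:91413355-91413384, and the third, chr2:137116585-137116614, are 30 bases around the E box from windows that reach into the annotated gene.
Hes6 upstream: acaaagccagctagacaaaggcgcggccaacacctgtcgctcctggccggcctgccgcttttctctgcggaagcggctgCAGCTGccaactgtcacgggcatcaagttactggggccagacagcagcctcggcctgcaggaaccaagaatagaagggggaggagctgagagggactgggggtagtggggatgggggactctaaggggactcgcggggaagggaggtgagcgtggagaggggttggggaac
Hes6 second start: gctccgccccgcCAGCTGccagagacccgc
Jag1: ccgcgtttcatgCAGCTGatctgaaaggga

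The libraries held 31831093 to 73988425 counts. *Myog* itself stood at 1065 to 1224 TPM (the authors' level per transcript length, scaled to the same total in each library) in dCas9-KRAB and at 0 to 0.379 TPM in dCas9-KRAB-En5. The label of a C2C12 myoblast culture did not hold equally in both groups. In dCas9-KRAB-En5 the myoblast genes *Myod1* and *Myf5* had 0 to 3 and 0 to 2 counts. There 10 myoblast genes summed to 9.86 to 30.4 TPM, against 165 to 491 TPM in dCas9-KRAB. Most of this sum was *Itga7*, at 9.01 to 27.7 TPM in dCas9-KRAB-En5 and 93.3 to 271 TPM in dCas9-KRAB. *Pax7* had 0 to 5 counts over both groups. In dCas9-KRAB-En5 12 myotube genes summed to 15.7 to 24.4 TPM, against at least 17620 TPM in dCas9-KRAB. Of 18 macrophage genes, 13 to 14 reached 1 TPM in each of the 6 libraries, with *Mrc1* at 0 counts throughout. Their sum was 3963 to 4839 TPM in dCas9-KRAB and 5477 to 8473 TPM in dCas9-KRAB-En5. Single macrophage genes went both ways. *Adgre1* was called higher (log2 fold change 2.68, edgeR adjusted p = 0.00706). *Fcgr1* (−1.84, edgeR adjusted p = 0.0178), *Aif1* (−1.63, edgeR adjusted p = 0.175) and *Mpeg1* (−1.1, edgeR adjusted p = 0.124) had negative values and were not called. Of 10 endothelial genes 1, *Egfl7*, reached 1 TPM, while *Cldn5*, *Tek*, *Erg* and *Emcn* had 0 counts in every library. Among 9 pericyte and smooth muscle genes the sum was 386 to 1584 TPM in dCas9-KRAB, carried by *Des*, and 15.0 to 18 TPM in dCas9-KRAB-En5, with *Rgs5*, *Kcnj8* and *Abcc9* at 0 counts in every library. Without *Des*, a gene of muscle too, the sum was 2.25 to 7.48 and 4.09 to 10.1 TPM. *Mcam* of that list was higher in dCas9-KRAB-En5 (2.78 to 8.86 against 0.176 to 0.307 TPM, log2 fold change 4.16, edgeR adjusted p = 0.000967). *Cspg4* (−2.51, edgeR adjusted p = 0.0136) and *Pdgfrb* (−1.54, edgeR adjusted p = 0.111) went the other way and were not called. The sum of 9 fibroblast genes was 72.5 to 208 TPM in dCas9-KRAB and 20.6 to 39.0 TPM in dCas9-KRAB-En5, and *Thy1* had 0 counts throughout. The part of these genes' cell types in the results on Notch genes was not tested, and the change in muscle genes cannot be told apart from the group.

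One library stood apart from its group. dCas9-KRAB-En5 replicate 3 listed 13991 genes, against 17084 to 19395 in the other 5 libraries, and ribosomal protein genes took 25.8% of its counts, against 10.8% to 19.4%. Compared with the other dCas9-KRAB-En5 libraries its log2 CPM was 0.58 higher in the median of the shortest quartile of genes and 1.24 lower in the longest quartile. For *Notch1*, *Notch2*, *Notch3*, *Jag1*, *Hes1*, *Hes6* and *Hey1* the fitted change is also given without it. For the other pathway genes except *Dll4* only the number called is given without it. The labels do not say that replicates were separate cultures, so p-values measure the spread between these samples, which may be technical. In these bulk libraries, fewer cells of a type and less RNA per cell cannot be told apart.

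Gene positions are those of GENCODE M21 on GRCm38. *Notch1*, a receptor at chr2:26457903-26516663, stood at 0.0699, 0.426 and 0.140 TPM in the dCas9-KRAB libraries and at 2.47, 2.71 and 0.402 TPM in the dCas9-KRAB-En5 libraries, here and below in the order of replicates 1 to 3. The first and second dCas9-KRAB-En5 libraries lay above every control library, and replicate 3 lay just below the highest control, so that the groups overlapped. The log2 fold change of dCas9-KRAB-En5 over dCas9-KRAB, from counts with edgeR's quasi-likelihood test, was 2.8 ± 0.70 (SE), with an adjusted p of 0.0201 that missed the cutoff of 0.01. With the replicate number as a block *Notch1* was called higher (log2 fold change 2.91, edgeR adjusted p = 0.00389), as it was without dCas9-KRAB-En5 replicate 3 (3.05, edgeR adjusted p = 0.00328). With an offset for gene length the value was 1.70 (edgeR adjusted p = 0.0652).

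*Notch2*, a second receptor at chr3:98013527-98150361, had 1.35, 4.86 and 2.02 TPM in dCas9-KRAB and 10.3, 18 and 2.35 TPM in dCas9-KRAB-En5. The groups overlapped only through dCas9-KRAB-En5 replicate 3, which lay among the controls. Its log2 fold change was 1.53 ± 0.56 and did not pass the test (edgeR adjusted p = 0.0775), with or without that library (1.77, edgeR adjusted p = 0.013). Without that library and with the block, *Notch2* was called higher (1.83, edgeR adjusted p = 0.00179). With an offset for gene length its value on the 6 libraries was 0.67 (edgeR adjusted p = 0.339).

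The receptor gene *Notch3* at chr17:32120820-32166852, known from muscle satellite cells and vascular smooth muscle, had 5.82, 19.0 and 12.4 TPM in dCas9-KRAB and 2.49, 2.55 and 4.31 TPM in dCas9-KRAB-En5. All control libraries lay above all dCas9-KRAB-En5 libraries. With all 6 libraries the log2 fold change was −1.81 ± 0.63 and was not called (edgeR adjusted p = 0.0682), whereas without dCas9-KRAB-En5 replicate 3 it was called lower (−2.89, edgeR adjusted p = 0.00158).

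Among the ligands, *Jag1* at chr2:137081456-137116644, a ligand anchored in the membrane of the signal-sending cell, was low in every control library. It stood at 0.240, 0.321 and 0.234 TPM in dCas9-KRAB and at 7.76, 8.04 and 0.315 TPM in dCas9-KRAB-En5. The first and second dCas9-KRAB-En5 libraries were high and replicate 3 was at the level of the controls. *Jag1* was called higher, with a log2 fold change of 3.85 ± 0.80 (edgeR adjusted p = 0.0085), and with the block of 3.34 (edgeR adjusted p = 0.00468). Without dCas9-KRAB-En5 replicate 3 it was 4.28 (edgeR adjusted p = 6.93e-05). Leaving out any other library ended the call, as did scaling by total counts alone and limma on either TPM scale; the adjusted p over all alternatives ran from 3.12e-09 to 0.108.

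*Jag2* at chr12:112907819-112929776, the related ligand, had 0.730, 2.42 and 1.99 TPM in dCas9-KRAB and 1.61, 2.08 and 0.389 TPM in dCas9-KRAB-En5. The groups overlapped, and the log2 fold change was −0.68 ± 0.57 (edgeR adjusted p = 0.437). *Dll1* at chr17:15367354-15376872, a Delta-type ligand, had 11, 113 and 58 counts in dCas9-KRAB and 52, 11 and 0 counts in dCas9-KRAB-En5. These counts spread as widely within each group as between them, and the log2 fold change of −0.98 ± 1.20 did not pass (edgeR adjusted p = 0.606).

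**Figure D1:**
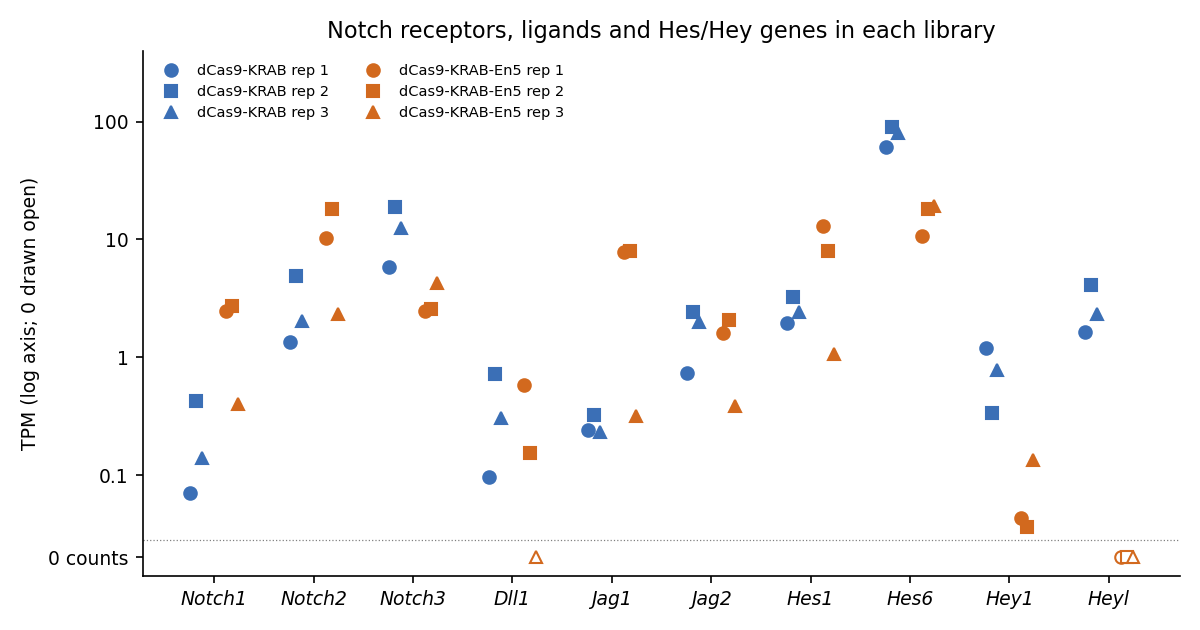
Level of the 10 Notch pathway genes in each of the 6 libraries, as TPM on a log axis, with open symbols for libraries with 0 counts, blue for dCas9-KRAB and orange for dCas9-KRAB-En5. *Heyl* has 0 counts in all 3 dCas9-KRAB-En5 libraries, and for *Jag1*, *Notch1*, *Notch2* and *Hes1* replicate 3 (triangle) lies below the other dCas9-KRAB-En5 libraries.

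*Heyl* at chr4:123233556-123249875, a transcriptional repressor of the Hey family and a target of Notch, showed the widest separation. It had 229, 784 and 530 counts in dCas9-KRAB (1.65, 4.10 and 2.32 TPM) and 0 counts in each of the 3 dCas9-KRAB-En5 libraries. The first and second of those libraries listed more genes than any control library did. *Heyl* was called lower (edgeR adjusted p = 0.000213), with the block too (edgeR adjusted p = 1.35e-05), and in each of the 18 alternatives in which it was tested. Against a floor of 3 counts in each dCas9-KRAB-En5 library it was at least 94-fold lower, a log2 bound of −6.55. A count of 0 allows up to 3 counts, or 0.0743 to 0.0942 CPM in these libraries, and this floor covers counting error only.

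*Hes6* at chr1:91411483-91414038, whose upstream sequence is printed above, was the most abundant of the 10 genes in every control library. Its level was 60.8, 89.9 and 79.9 TPM in dCas9-KRAB and 10.7, 18 and 19.1 TPM in dCas9-KRAB-En5, or 76.9 ± 14.8 against 15.9 ± 4.61 TPM (SD, n = 3 each). All dCas9-KRAB-En5 libraries lay below all controls. The log2 fold change was −2.20 ± 0.55, with an edgeR adjusted p of 0.0196. It was called lower with the block (−2.44, edgeR adjusted p = 0.00265), with DESeq2 (−2.20, DESeq2 adjusted p = 0.00204) and without dCas9-KRAB-En5 replicate 3 (−3.06, edgeR adjusted p = 0.000401).

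*Hes1* at chr16:30064384-30067796, the best known Notch target and a repressor of differentiation genes, had 1.95, 3.25 and 2.45 TPM in dCas9-KRAB and 13.1, 7.93 and 1.07 TPM in dCas9-KRAB-En5. The first and second dCas9-KRAB-En5 libraries were above the controls and replicate 3 was below all of them. Its log2 fold change of 1.12 ± 0.64 did not pass (edgeR adjusted p = 0.245), and without replicate 3 it was 1.46 (edgeR adjusted p = 0.0249).

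*Hey1* at chr3:8663359-8667256, a repressor that pairs with Hes proteins, was scarce, with 107, 41 and 113 counts in dCas9-KRAB and 3, 2 and 10 counts in dCas9-KRAB-En5. The groups did not overlap, but the second group lies at or near the floor of 3 counts. A log2 fold change of −3.24 ± 1.08 did not pass with all 6 libraries (edgeR adjusted p = 0.0587). It passed without dCas9-KRAB-En5 replicate 3 (−4.87, edgeR adjusted p = 0.00352) and with DESeq2 (−3.23, DESeq2 adjusted p = 0.00765).

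**Figure D2:**
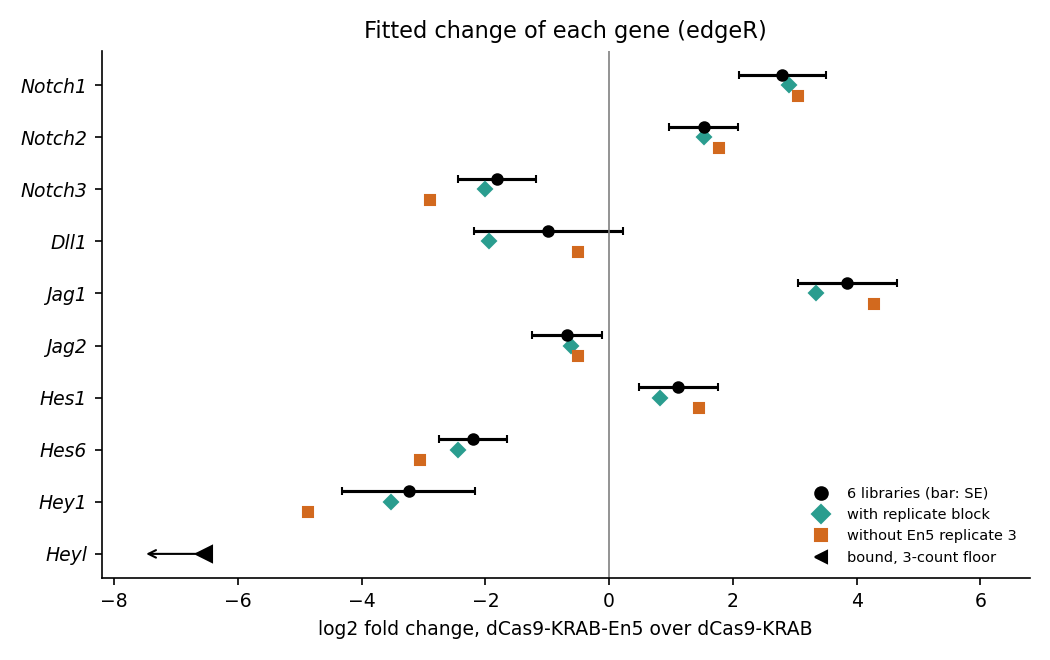
Fitted log2 fold change of dCas9-KRAB-En5 over dCas9-KRAB for each gene, with bars for the SE of the model on 6 libraries, diamonds for the model with the replicate block and squares for the model without dCas9-KRAB-En5 replicate 3. The triangle with an arrow is the bound of −6.55 for *Heyl*, and the 3 models lie on the same side of 0 for each of the other genes.

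Of the 10 genes, 1 was called lower (*Heyl*) and 1 higher (*Jag1*), where a call needs a log2 fold change of 1 or more in size besides an adjusted p no higher than 0.01. Of the 14378 genes tested, 4.67% were called lower and 1.52% higher, that is 671 and 219 genes, and 516 and 70 when the libraries were scaled by total counts alone. With the block the Notch calls were 2 lower (*Heyl*, *Hes6*) and 2 higher (*Jag1*, *Notch1*), beside 6.79% and 3.94% of all genes. Without dCas9-KRAB-En5 replicate 3 they were 4 lower (*Heyl*, *Hes6*, *Hey1*, *Notch3*) and 2 higher (*Notch1*, *Jag1*), beside 14.0% and 11.7%. DESeq2, which the study's methods name, called 3 lower (*Heyl*, *Hes6*, *Hey1*) and 2 higher (*Notch1*, *Jag1*), beside 8.66% and 5.88%. The median log2 fold change was −0.83 over the 10 genes, of which 4 had a positive value, and 0.08 over all genes tested, of which 7522 had one. The TPM of the groups did not overlap for 4 of the 10 genes (*Notch3*, *Hes6*, *Hey1*, *Heyl*), beside 27.5% of all genes tested, and for 8 of the 10 without dCas9-KRAB-En5 replicate 3, where it did not overlap for 68.5% of the same genes tested. No gene of the 10 changed the sign of its log2 fold change in any alternative.

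TPM is per length, and the make-up of each role was set out as a share of its summed TPM. In dCas9-KRAB-En5 replicate 3 levels still varied with gene length, by 0.58 in the shortest and −1.24 in the longest quartile. Its shares therefore compare genes of unlike length less safely than those of the other libraries. Within the 3 receptors the summed level was 7.24, 24.3 and 14.6 TPM in dCas9-KRAB and 15.2, 23.3 and 7.05 TPM in dCas9-KRAB-En5 (exact permutation test, two-sided p = 0.9). *Notch3* made up 80.4%, 78.2% and 85.2% of it in dCas9-KRAB, and 16.3%, 10.9% and 61.0% in dCas9-KRAB-En5. *Notch2* held 13.8% to 20% in the controls and 33.3% to 77.4% in dCas9-KRAB-En5, and *Notch1* held 0.959% to 1.75% and 5.70% to 16.2%. The leading receptor was thus *Notch3* in each control library and *Notch2* in the first and second dCas9-KRAB-En5 libraries. Each of these shares was separated between the groups, with the smallest p that 3 against 3 libraries allow (exact permutation test, two-sided p = 0.1, 0.125 adjusted over the 10 shares tested).

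For the ligands, the *Jag1* share was 22.5%, 9.28% and 9.22% in dCas9-KRAB and 78.0%, 78.2% and 44.7% in dCas9-KRAB-En5, a mean difference of 53.3 percentage points. *Jag2* went from 68.5% to 78.7% in the controls down to 16.2% to 55.3%, and *Dll1* held at most 20.7% in any library. Even dCas9-KRAB-En5 replicate 3, where the *Jag1* level was that of the controls, lay above them in the *Jag1* share, at a summed ligand level of 0.704 TPM. The permutation p was again 0.1, the smallest an exact test can give here, for each of the 3 ligand shares.

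Over the *Hes* and *Hey* genes the summed level was 65.7, 97.6 and 85.4 TPM in dCas9-KRAB and 23.7, 26.0 and 20.3 TPM in dCas9-KRAB-En5, without overlap (exact permutation test, two-sided p = 0.1). *Hes6* made up 92.1% to 93.5% of it in the controls and 44.9%, 69.4% and 94.1% in dCas9-KRAB-En5 (exact permutation p = 0.4). *Hes1* held 2.98%, 3.33% and 2.86% in dCas9-KRAB and 55.0%, 30.5% and 5.28% in dCas9-KRAB-En5, so that the *Hes1* share lay above the controls in every dCas9-KRAB-En5 library, although its level did not. The share of *Heyl* was 2.51% to 4.2% in the controls and 0% in dCas9-KRAB-En5, and that of *Hey1* overlapped between groups (exact permutation p = 0.2).

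**Figure D3:**
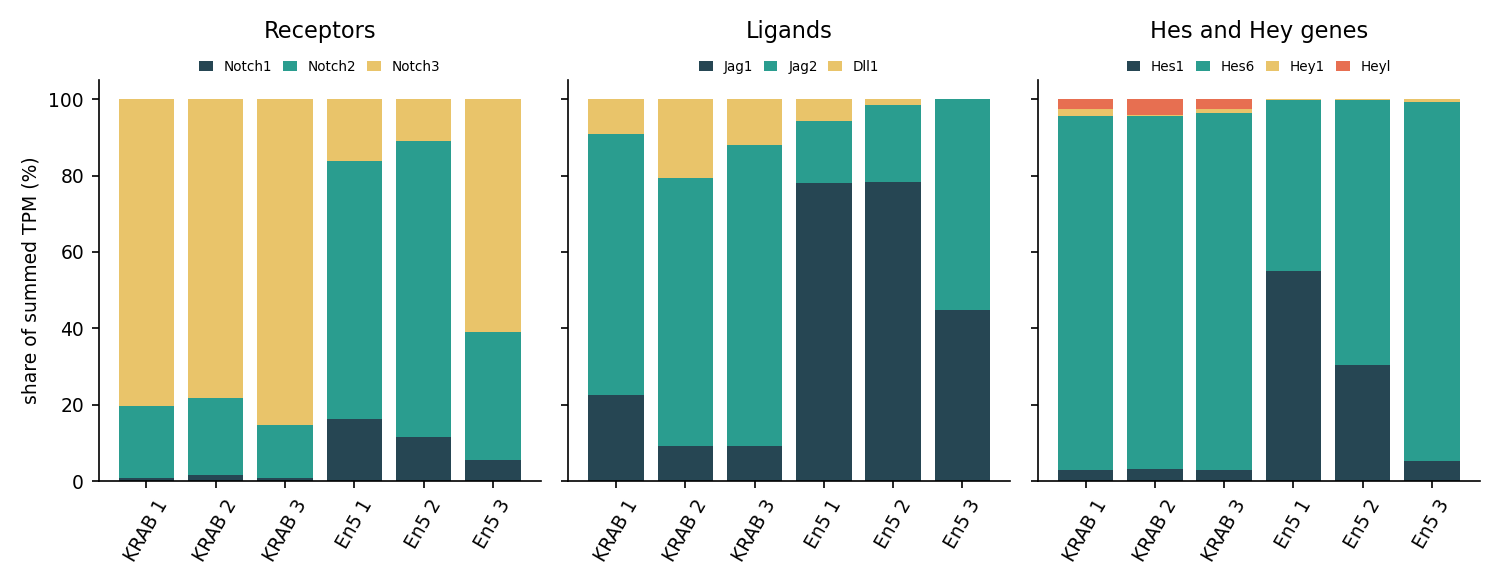
Share of each gene in the summed TPM of its role, in percent, for each library, with KRAB for dCas9-KRAB and En5 for dCas9-KRAB-En5. *Notch3* fills 78.2% to 85.2% of the receptor bar in the control libraries, and *Jag1* fills 44.7% to 78.2% of the ligand bar in the dCas9-KRAB-En5 libraries.

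The 10 genes did not deviate alike in dCas9-KRAB-En5 replicate 3. *Notch1* (−1.46 log2 CPM against the mean of the other dCas9-KRAB-En5 libraries), *Notch2* (−1.31) and *Jag2* (−1.0) were lower there by about as much as the longest quartile of genes, to which all 3 belong. *Notch3*, also in that quartile, was higher there by 1.99. *Hes1*, among the shortest quartile, was lower by 2.0, while *Hes6* in the same quartile was higher by 1.68. *Jag1* was lower by 3.40, and *Hey1* higher by 2.30 from 3, 2 and 10 counts. For *Notch3*, *Hes6* and *Hey1* replicate 3 therefore lay nearest to the controls from below, and for *Notch1*, *Notch2*, *Jag1* and *Hes1* it lay lowest in its group, nearest to the controls or under them. The part of RNA quality in these differences was not tested.

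**Figure D4:**
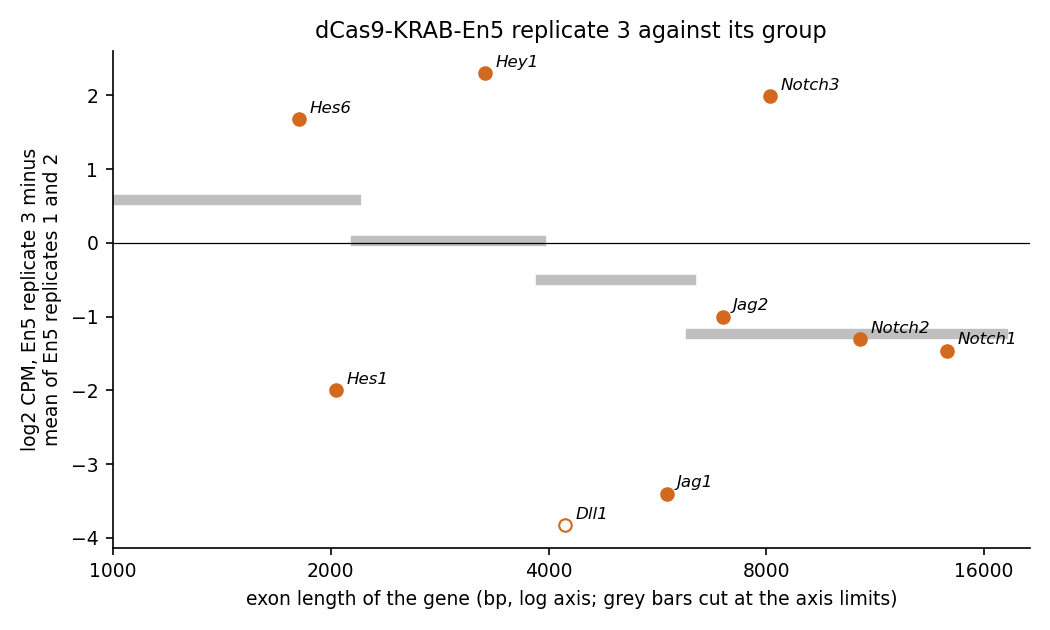
Difference in log2 CPM between dCas9-KRAB-En5 replicate 3 and the mean of replicates 1 and 2, against exon length in base pairs on a log axis, with grey bars for the median of all tested genes in each quartile of length. *Notch1*, *Notch2* and *Jag2* lie near the bar of their length, *Notch3* (1.99) and *Hey1* (2.30) lie above it and *Hes1* (−2.0) and *Jag1* (−3.40) below it; *Dll1*, open, has 0 counts in replicate 3, and *Heyl*, at 0 in the whole group, is left out.

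Other genes of the pathway were taken from 8 lists by role, 62 genes in all, of which 58 were listed in the files and 54 could be tested. Of the 54, 2 fell (*Neurl1a*, *Dlk2*) and 4 rose (*Notch4*, *Neurl1b*, *Rbpj*, *Maml3*), where 4.67% and 1.52% of all genes were called. Their median log2 fold change was 0.73, with 40 of 54 positive, beside 0.08 over all genes, with 7522 of 14378 positive. With an offset for gene length the median was 0.55, with 40 of 54 positive, beside 0.04 over all genes, with 7393 of 14367 positive. With the block 3 were lower and 9 higher, beside 6.79% and 3.94% of all genes, and without dCas9-KRAB-En5 replicate 3, 5 and 19 of 55 tested, beside 14.0% and 11.7%.

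*Rbpj*, the DNA-binding partner of the cleaved receptor, stood at 4.60, 5.79 and 2.79 TPM in dCas9-KRAB and 66.9, 66.3 and 6.10 TPM in dCas9-KRAB-En5, with a log2 fold change of 2.97 ± 0.63 (edgeR adjusted p = 0.009). *Maml3*, a coactivator of the same complex, had a log2 fold change of 2.58 ± 0.54 (edgeR adjusted p = 0.00836). Both were above the controls in each dCas9-KRAB-En5 library, and both lost the call with an offset for gene length (1.84 and 1.71, edgeR adjusted p = 0.0124 and 0.0134). *Notch4*, the receptor known from endothelium, had 0.0777, 0.298 and 0.352 TPM in dCas9-KRAB and 9.09, 12.5 and 0.770 TPM in dCas9-KRAB-En5 (log2 fold change 4.45 ± 0.80, edgeR adjusted p = 0.00407).

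*Neurl1a* and *Neurl1b*, paralogous ubiquitin ligases that act on Notch ligands at the membrane, were called in opposite directions. *Neurl1a* had 26.1, 48.5 and 36.0 TPM in dCas9-KRAB and 0.130, 0.122 and 0.216 TPM in dCas9-KRAB-En5 (log2 fold change −7.76 ± 0.75, edgeR adjusted p = 7.27e-05). *Neurl1b* had 0.175, 0.646 and 0.360 TPM and 3.74, 7.55 and 1.30 TPM (3.07 ± 0.62, edgeR adjusted p = 0.00707). For both genes the groups did not overlap. *Dlk2*, a ligand-like protein of the Delta family, had 48, 116 and 95 counts in dCas9-KRAB and 1, 0 and 0 counts in dCas9-KRAB-En5, at least 16.1-fold lower against the 3-count floor (edgeR adjusted p = 0.00375).

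The remaining lists held no call in the edgeR fit on the 6 libraries without the block. The gene with the smallest adjusted p was *Furin*, which cleaves the receptor precursor, among 10 cleavage genes (log2 fold change 1.81, edgeR adjusted p = 0.0315), *Lfng*, which adds sugars to the receptor, among 5 glycosylation genes (0.76, edgeR adjusted p = 0.351), and *Tle1*, a corepressor that Hes proteins recruit, among 10 corepressor genes (2.38, edgeR adjusted p = 0.0152). *Nedd4*, a ubiquitin ligase, stood first among 10 genes of receptor turnover (−2.11, edgeR adjusted p = 0.0153), and *Hes7* was the 1 gene tested among the other targets (0.75, edgeR adjusted p = 0.686). With the replicate block *Furin* (1.93, edgeR adjusted p = 0.00971) and *Tle1* (2.25, edgeR adjusted p = 0.00502) were called higher and *Nedd4* (−2.10, edgeR adjusted p = 0.00493) lower. The block also called *Spen* and *Tle4* among the corepressors and *Numb* among the genes of receptor turnover higher, with edgeR adjusted p = 0.00944, 0.00697 and 0.00647. DESeq2 without a block called each of these genes in the same direction. The DESeq2 adjusted p was 0.00596 for *Furin*, 0.000614 for *Tle1* and 0.000647 for *Nedd4*. It was 0.00875 for *Spen*, 0.00984 for *Tle4* and 0.000856 for *Numb*. With scaling by total counts alone edgeR called 0 of the 54 genes higher, while 28 of the 54 had an unadjusted p under 0.05 in either direction, beside 32.3% of all genes, and DESeq2 called 10 of 56 higher, beside 5.88%. The counts with the other settings are given in the closing section.

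**Figure D5:**
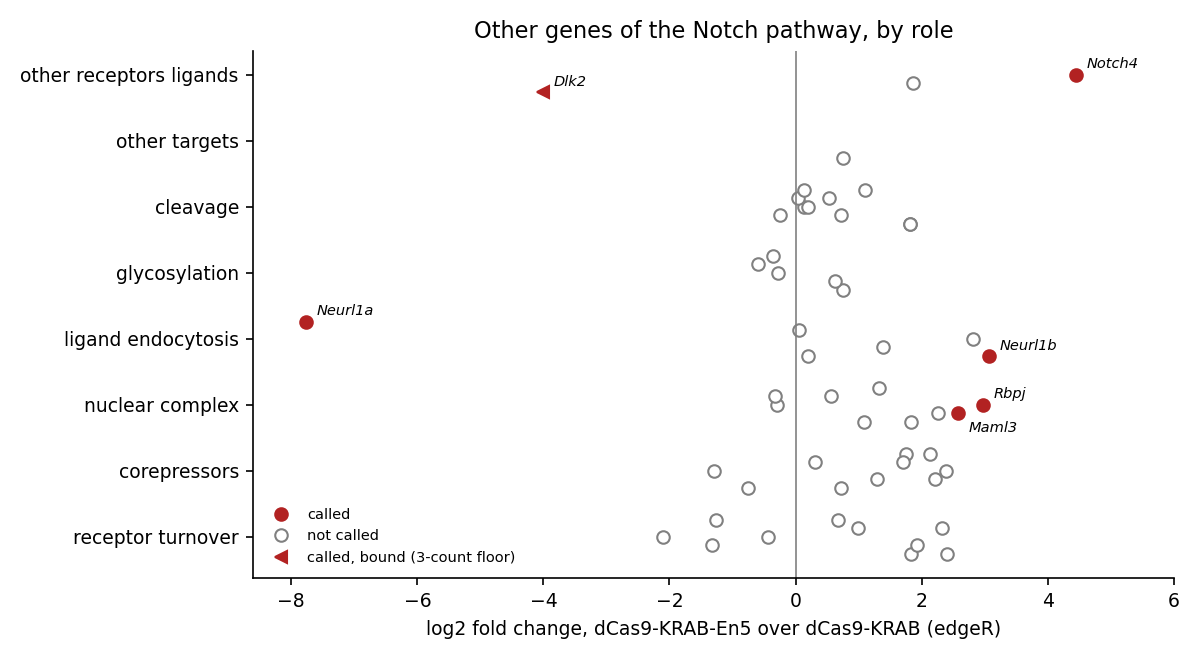
Fitted log2 fold change of dCas9-KRAB-En5 over dCas9-KRAB for the 54 tested genes of the pathway other than the 10, by role, with filled symbols for called genes. The 4 genes called higher lie between 2.58 and 4.45, *Neurl1a* lies at −7.76, and the triangle for *Dlk2* marks its bound of −4.01.

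As a description of likeness, Pearson's correlation of log2 CPM was taken over the 6 libraries between each Notch gene with the smallest adjusted p in its direction and 14368 other genes. Genes with a profile close to that of *Heyl* were *Otog* (r = 0.9999) and *Tmem184a* (r = 0.9997), and 756 genes exceeded r = 0.95. That of *Jag1* was most like those of *Jarid2* (r = 0.9997), *Tcp11l2* (r = 0.9985) and *Sav1* (r = 0.9981), and 742 genes exceeded r = 0.95. The points share the same libraries, and many genes follow each profile.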

How the data were processed

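RNA-Seq of 6 poly-A libraries was analysed. The authors aligned reads to GRCm38/mm10 with HISAT2 2.2.1, obtained gene counts with featureCounts, and deposited these counts with TPM. The annotation release and strand setting are not given in the sources used here. Implied gene lengths lay within 1% of GENCODE M21 exon lengths for 98.62% of 12933 genes. The kit is not described as marking strand, and opposite-strand genes overlap *Notch1*, *Notch3* and *Dll1*, so reads from both cannot be told apart there. The same holds for *Notch4*, *Rbpj*, *Maml3*, *Neurl1a* and *Dlk2* of the other pathway genes called. It also holds for some that were not called, among them *Dll4* and *Mib1*. Genes absent from a deposited file were taken as 0 counts.

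Counts were tested with edgeR 4.0.16 in R 4.3.3 (TMM, filterByExpr with minimum count 10 and minimum total count 15, glmQLFit and glmQLFTest, group alone, Benjamini-Hochberg adjustment over all genes). The SE is the size of the fold change over the square root of F. Alternatives used DESeq2 1.42.0 and limma 3.58.1 on log2(TPM + 1) or log2(TPM + 0.1), and log2 CPM used a prior count of 2. The script was tested on simulated data. Depth was 31831093 to 73988425 counts, so that 3 counts equal 0.0405 to 0.0942 CPM.

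Labels number the replicates 1 to 3 in both groups. Deviations of same-numbered libraries from their group means correlated at 0.262, 0.214 and 0.290 over 14378 genes, and those of other pairs at −0.340 to −0.0508. Because group means were subtracted, positive values for same-numbered libraries by themselves push other pairs below them. Replicate 3 of both groups also shared a trend with gene length, which was not removed here. The numbers were taken as pairs for the block, but these correlations cannot show that the libraries were paired. The model with this block is given where it changes a call of a named gene.

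The 10 genes and all lists were chosen with earlier results of these data known. Named genes were the 10, *Myog*, the other pathway genes called, the gene with the smallest adjusted p in each list without a call, and the 3 genes most like *Heyl* and *Jag1*, of which 1 is not reported here. Marker genes, genes that edgeR on the 6 libraries called only with the block, the paralogous pairs and *Dll4* were singled out after their values were seen. The enhancer guides were copied from the study's supplementary table, sequences only.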

Additional observations from a re-analysis of the deposited data

How the results depend on the processing

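Over up to 19 alternatives per gene the sign of the log2 fold change held for all 10 Notch genes. The ranges were −11.94 to −1.83 for *Heyl*, 1.90 to 4.28 for *Jag1*, 1.13 to 3.63 for *Notch1*, −3.06 to −1.86 for *Hes6*, −4.87 to −0.70 for *Hey1*, −2.89 to −1.47 for *Notch3*, 0.67 to 2.08 for *Notch2* and 0.44 to 1.69 for *Hes1*. Fitted values of *Heyl* depend on how its 0 counts are handled. *Heyl* kept its call wherever it was tested and *Jag1* lost it in 8 of 19. The number of Notch genes called lower, 1 in the report, was 3 with no filter on low counts and with DESeq2, 2 with limma on either TPM scale, with the replicate block and with a cutoff of 0.05, 0 with at least 10 counts required in every library, where *Heyl* is not tested, 4 with the replicate block without dCas9-KRAB-En5 replicate 3, and 1 to 4 when 1 library was left out. The number called higher, also 1, was 0 with total counts only and with limma, 2 with no filter, DESeq2, the replicate block and the cutoff of 0.05, 3 with the block without that library, and 0 to 2 when 1 library was left out. The counts over all genes, given below, moved with the setting too. Of the other pathway genes, 2 were lower, against 1 with at least 10 counts in every library, 5 with the block without dCas9-KRAB-En5 replicate 3 and 1 to 5 with 1 library left out. Higher were 4, against 0 with total counts only and with limma, 12 with no filter, 10 with DESeq2 and with the cutoff of 0.05, 9 with the replicate block, 21 with the block without that library and 0 to 19 with 1 library left out. Of all 14378 genes tested 671 were lower, against 1194 of 23231 with no filter and 339 of 11640 with at least 10 counts in every library. It was 1423 of 16436 with DESeq2, and 482 and 643 of 14378 with limma on log2(TPM + 1) and log2(TPM + 0.1). Of 14378 genes, 976 were lower with the replicate block and 1380 at the cutoff of 0.05. The block without dCas9-KRAB-En5 replicate 3 gave 2427 of 15265. With 1 library left out, 216 of 15110 (without dCas9-KRAB replicate 1) to 2134 of 15265 (without dCas9-KRAB-En5 replicate 3) were lower. The genes called higher are out of the same numbers tested. Higher were 219, against 70 with total counts only, 1004 with no filter, 967 with DESeq2, 32 and 66 with limma on log2(TPM + 1) and log2(TPM + 0.1), 567 with the replicate block, 1069 at the cutoff of 0.05, 2134 with the block without that library and 6 to 1787 with 1 library left out, the lowest without dCas9-KRAB replicate 1 and the highest without dCas9-KRAB-En5 replicate 3. Leaving out 1 library leaves fewer samples, or removes the one that stood apart, and the cause of the other moves was not tested. At an unadjusted p under 0.05, 7 of the 10 Notch genes passed with the 6 libraries in edgeR, beside 32.9% of all genes, and 6 with limma on either TPM scale, beside 26.6% and 25.7%. The offset for gene length and the block without dCas9-KRAB-En5 replicate 3 were chosen after seeing the data. The differences in the *Notch1*, *Jag1* and *Hes1* shares kept their direction throughout, at 7.45 to 12.7, 47.7 to 64.4 and 14.8 to 39.7 percentage points. Depth limits *Heyl*, with 0 counts in dCas9-KRAB-En5, *Hey1*, with 3, 2 and 10, and *Dll1*, with 52, 11 and 0.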

Other observations

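Several pathway genes outside the 10 come as paralogous pairs, and their make-up was looked at after their values were seen, so no test is given. *Neurl1a* made up 98.7% to 99.3% of the summed TPM of *Neurl1a* and *Neurl1b* in dCas9-KRAB and 3.35%, 1.58% and 14.3% in dCas9-KRAB-En5, so that the leading paralogue differed between the groups in each library. *Numb*, an inhibitor of Notch, held 44.1% to 52.1% of the sum with its paralogue *Numbl* in the controls and 95.0%, 96.1% and 69.7% in dCas9-KRAB-En5. *Mib1*, a ubiquitin ligase for Notch ligands, held 1.48% to 1.69% of the sum with *Mib2* in the controls and 21.8%, 15.9% and 1.12% in dCas9-KRAB-En5, where replicate 3 lay below the controls. *Kat2a* held most of the sum with *Kat2b* in each of the 6 libraries, at 85.1% to 99.3%.

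With *Notch4* added to the receptors, it made up 1.06% to 2.36% of their summed TPM in dCas9-KRAB and 37.4%, 34.9% and 9.84% in dCas9-KRAB-En5. *Dll4*, a ligand known from endothelium, had 0, 5 and 0 counts in dCas9-KRAB and 138, 147 and 0 counts in dCas9-KRAB-En5. It was left out of the edgeR test on the 6 libraries by the filter on low counts, and DESeq2 did not call it there (log2 fold change 6.27, DESeq2 adjusted p = 0.121). Without dCas9-KRAB-En5 replicate 3 it passed the filter, and edgeR called it higher (6.68, edgeR adjusted p = 9e-04). *Hes5*, *Nrarp*, *Dll3* and *Dlk1* had 0 counts in each of the 6 libraries.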
